A study of Mus musculus with 9 samples.

Results

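Oxidative phosphorylation subunits were examined as 1 set of genes in a mouse pancreatic cancer cell line with and without the palmitoyltransferase gene Zdhhc20. The set holds the protein-coding genes whose symbols name subunits of respiratory complexes I to V: those beginning with Ndufa, Ndufb, Ndufc, Ndufs, Ndufv, Uqcr, Cox4i, Cox5, Cox6, Cox7, Cox8 or Atp5, together with Sdha, Sdhb, Sdhc, Sdhd, Cyc1 and the 13 protein-coding genes of mitochondrial DNA. Pseudogenes and assembly factors were left out. The rule found 100 of the 54838 counted gene identifiers, of which 87 are nuclear-encoded and 13 mitochondrially encoded. Atp5o is carried by 2 identifiers, so the set has 1 symbol fewer than identifiers. In all, 92 members held enough counts to be tested, 79 of them nuclear-encoded and all 13 of the mitochondrial ones. Atp5if1 and Atp5md carry the symbols Atpif1 and Usmg5 in the annotation used here and so fell outside the rule, as did Ndufb1-ps, which is annotated as a non-coding RNA.

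The cells were PDA530 Met, a line obtained from a male KPC mouse's liver metastasis, on a mixed 129/SvJae/C57Bl/6 background. The series text also writes the name as PDA50 Met. All cells grew in DMEM with 10% serum, were not treated, and gave RNA for poly(A)-based mRNA libraries. In the knockout (KO) group, Zdhhc20 was edited with CRISPR/Cas9 and a single-cell clone, E4, was grown out. The control group was another single-cell clone, C5, which had received the guide RNAs by nucleofection but was not edited. The parental group was the line before cloning, which had neither been edited nor cloned. Each group had 3 libraries. Within a group the 3 samples, which the labels call biological, all come from 1 clone or line and not from independent clones. The KO group is 1 edited clone, so loss of Zdhhc20 and differences between clones cannot be told apart in any comparison. The same holds for genes that differ in the KO clone from both other groups. A p-value measures only the spread between samples within groups, estimated over all 9 libraries together, the third group included. The labels do not tie these samples to separate cultures.

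Oxidative phosphorylation takes place in the inner mitochondrial membrane. Complex I (NADH dehydrogenase) and complex II (succinate dehydrogenase) pass electrons to coenzyme Q, complex III passes them to cytochrome c, and complex IV (cytochrome c oxidase) passes them to oxygen. Complexes I, III and IV pump protons, and complex V (ATP synthase) uses the proton gradient to make ATP. Complexes I, III, IV and V mix subunits from both genomes, whereas complex II is entirely nuclear-encoded. The mitochondrial subunits form the hydrophobic cores and are transcribed from mitochondrial DNA as long RNAs that are cut into single mRNAs, so their supply and that of the nuclear subunits are set in different compartments.

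Total counts ran from 16525869 to 23192701 a library, and each library's counts were scaled by its effective size to CPM, a depth-corrected count. Zdhhc20 lay at 33.9 to 42.5 CPM in the KO clone, 85.8 to 123 CPM in the control clone and 75.3 to 90.7 CPM in the parental line, so the KO clone was the lowest and kept RNA of the gene. The 7 markers of ductal or carcinoma epithelium were Krt7, Krt8, Krt18, Krt19, Cdh1, Epcam and Sox9. They summed to 4318 to 4446 CPM in the KO clone, 7008 to 9379 in the control clone and 6696 to 8165 in the parental line. The keratins and Cdh1 made up nearly all of each sum. Epcam was barely counted, at 0.118 to 0.635 CPM, and Sox9 lay at 8.27 to 20.2 CPM. Summed markers of fibroblasts reached at most 3.998 CPM, of immune cells 2.75 CPM, of endothelium 0.525 CPM and of red blood cells 0.655 CPM. In the list for acinar cells, 4 of 5 markers were at 0 in every library, and the fifth, Cela1, lay at 1.22 to 1.32 CPM in the KO clone, 3.99 to 7.66 in the control clone and 1.59 to 2.94 in the parental line; its part in the results was not tested. The labels give no batch. Differences are given as log2 fold changes with their standard error (SE), and a gene was called when its adjusted p was under 0.05 in edgeR's quasi-likelihood test with Benjamini-Hochberg adjustment over the 13153 genes tested. Since the values come from bulk cultures, fewer cells of a kind and less RNA per cell cannot be told apart.

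The 13 mitochondrial mRNAs were at their highest in the control clone, with 1 clear exception. In control against parental 11 of the 13 were called higher, and in KO against control 11 were called lower and 1, mt-Nd3, higher; the 11 were in both cases those other than mt-Nd3 and mt-Co2. Among all genes tested, 10.4% were called higher in control against parental and 24.2% lower in KO against control. The median log2 fold change of the 13 was 1.36 for control against parental and -1.20 for KO against control, beside 0.01 and -0.02 over all genes tested. Between the KO clone and the parental line the median was 0.28 beside -0.01 over all genes. There 1 of 13, mt-Nd3, was called higher, beside 13.1% of all genes. That count was 3 with DESeq2 and without a filter, 5 with the replicate block, 4 in a fit of only these groups and 0 to 3 with 1 library left out: mt-Nd1, at 0.50 ± 0.18 (adjusted p = 0.066), gained the call in 8 of 19 alternatives and mt-Nd5, at 0.43 ± 0.16 (adjusted p = 0.0702), in 7. The edgeR test called 0 lower; 0 were lower at an unadjusted p under 0.05, and DESeq2 and limma-voom each called 0.

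**Figure D1:**
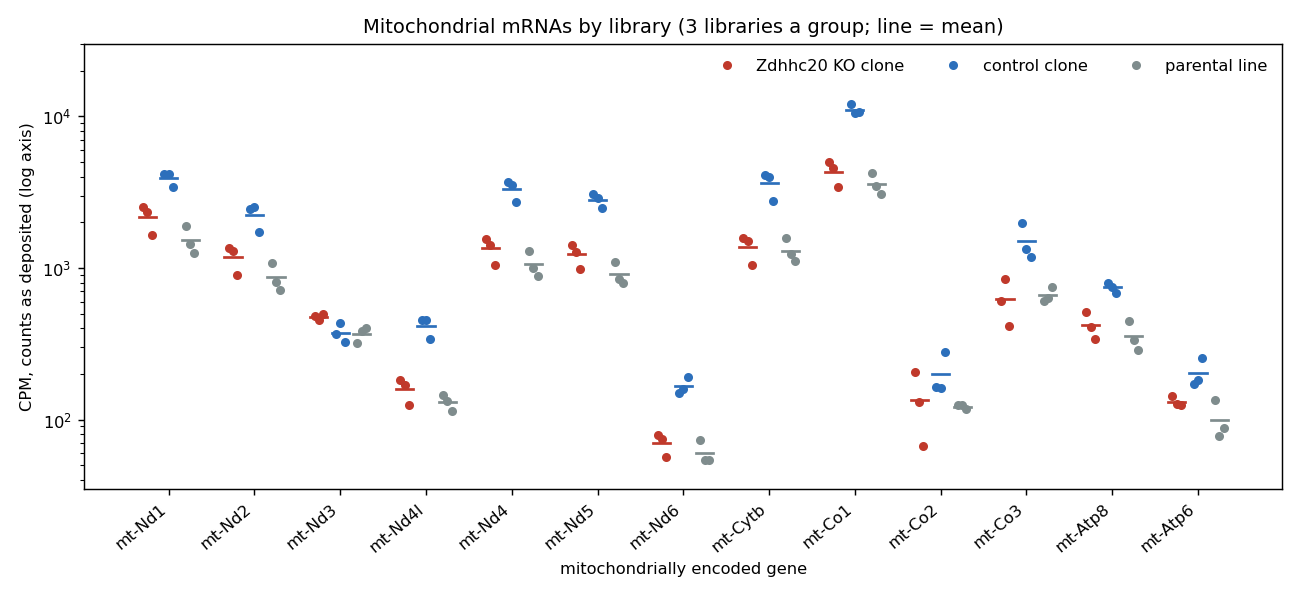
CPM of the 13 mitochondrially encoded members on a log axis, 1 point for each library and a line at each group's mean of 3 libraries, in red for the KO clone, blue for the control clone and grey for the parental line. The control clone's points lie above both other groups for 11 genes; for mt-Nd3 the KO clone is highest, and for mt-Co2 the KO and control points overlap.

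The 3 mitochondrial subunits of complex IV form its catalytic core, and as deposited their levels per kilobase ranged from 1st of the 13 in every group (mt-Co1) to 11th, 13th and 11th in the KO, control and parental groups (mt-Co2). mt-Co1, whose product binds the haem and copper where oxygen is reduced, stood at 4988, 4529 and 3398 CPM in the KO libraries, at 12025, 10445 and 10740 CPM in the control clone and at 4240, 3449 and 3067 CPM in the parental line. All 3 control libraries lay above the other 6, and the KO and parental ranges overlapped. The control clone was 3.09-fold higher than the parental line (log2 fold change 1.63 ± 0.16 SE, adjusted p = 0.000272), and the KO clone stood 2.57-fold below the control clone (-1.36 ± 0.16, adjusted p = 0.000177). KO against parental was 0.26 ± 0.16 (adjusted p = 0.223). mt-Co3, the core subunit without metal centres, had 604, 847 and 411 CPM in the KO clone, 1986, 1332 and 1172 in the control clone and 608, 637 and 752 in the parental line. Its control values again stood clear of the rest, with log2 fold changes of 1.17 against the parental line and -1.27 for KO against control. Its call against the parental line was lost without parental replicate 1 (adjusted p = 0.0619) or 2 (adjusted p = 0.0572). mt-Co2, which takes electrons from cytochrome c, was counted at 206, 130 and 66.6 CPM in the KO clone, 163, 161 and 279 in the control clone and 124, 124 and 117 in the parental line. Neither its difference of 0.72 ± 0.35 for control against parental (adjusted p = 0.173) nor that of -0.59 ± 0.35 for KO against control (adjusted p = 0.203) passed.

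Complex I takes 7 of its subunits from mitochondrial DNA, and 6 of them shared the control clone's high level. mt-Nd4, a proton-pumping subunit, had 1562, 1423 and 1053 CPM in the KO clone, 3706, 3526 and 2737 in the control clone and 1302, 1003 and 890 in the parental line. Here too the control libraries did not overlap the others, while KO and parental did. The control clone exceeded the parental line by 3.12-fold (1.64 ± 0.19, adjusted p = 0.000599). mt-Nd4l, which overlaps mt-Nd4 and shares its mRNA, moved by 1.67 ± 0.17, the largest value of the 13 as deposited, and mt-Nd5, another pumping subunit, by 1.63 ± 0.16. mt-Nd1 and mt-Nd2, at the start of the heavy-strand mRNAs, each moved by 1.36 for control against parental, with KO against control at -0.86 ± 0.19 and -0.92 ± 0.21. mt-Nd6, the only member read from the opposite strand, was the lowest of the 13 in CPM, at 79.1, 74.2 and 56.3 in the KO clone, 150, 159 and 192 in the control clone and 73.1, 53.8 and 54.4 in the parental line. Its difference of 1.46 ± 0.17 for control against parental was of the size seen for genes of the other strand. The strand setting of the counts is not given, so counts on mt-Nd6 may include RNA of the other strand.

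mt-Nd3 did not share the pattern. Its counts were 480, 452 and 495 CPM in the KO clone, 367, 431 and 324 in the control clone and 320, 383 and 404 in the parental line. The KO libraries were the 3 highest, and control and parental overlapped. KO was higher by 0.35 ± 0.12 against the control clone (adjusted p = 0.0395) and by 0.37 ± 0.12 against the parental line (adjusted p = 0.0421). These are small calls: the first was lost in 5 and the second in 8 of 19 alternative analyses, with adjusted p up to 0.11 and 0.127. Control against parental was 0.02 ± 0.12, so mt-Nd3 was flat where its neighbours mt-Co3 and mt-Nd4l differed by 1.17 and 1.67.

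For complex III the only mitochondrial subunit is cytochrome b. mt-Cytb had 1567, 1499 and 1047 CPM in the KO clone, 4099, 3981 and 2754 in the control clone and 1573, 1227 and 1103 in the parental line. The control libraries stood apart, and KO and parental overlapped. The KO clone stood 2.63-fold below the control clone (-1.40 ± 0.20, adjusted p = 0.000622), the lowest value of the 13 in that comparison, and differed from the parental line by 0.08 ± 0.20 (adjusted p = 0.807). The 2 mitochondrial subunits of ATP synthase, which share an mRNA, gave smaller differences as deposited. Most counts of mt-Atp6 were placed on a pseudogene copy, and its values with the copy are given below. mt-Atp8 stood 2.09-fold above the parental line in the control clone (1.07 ± 0.18, adjusted p = 0.00355), and mt-Atp6, the proton-channel subunit, 2.03-fold higher (1.02 ± 0.21, adjusted p = 0.00931). The call of mt-Atp6 for KO against control (-0.63 ± 0.21, adjusted p = 0.0364) was lost when any single KO library, control replicate 3 or parental replicate 3 was left out, with adjusted p up to 0.108.

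Summed over the 13 genes, mitochondrial mRNA took 1.56, 1.48 and 1.06% of all counts in the KO libraries, 3.32, 3.02 and 2.66% in the control clone and 1.31, 1.08 and 0.969% in the parental line. The control clone's share was above the other 6 libraries, and the KO and parental ranges met. The 87 nuclear members together took 0.705 to 0.751% in the KO clone, 0.752 to 0.786% in the control clone and 0.771 to 0.829% in the parental line. The ratio of mitochondrial to nuclear members was 1.87 ± 0.411 in the KO clone, 3.89 ± 0.419 in the control clone and 1.40 ± 0.268 in the parental line (SD, n = 3). With the counts of nuclear pseudogene copies added to the mitochondrial genes it was 2.85 ± 0.598, 5.59 ± 0.526 and 2.12 ± 0.426. In every group replicate 3 had the lowest mitochondrial share. Replicate 3 also had the highest share of Gm42418, a gene that overlaps nuclear ribosomal RNA, at 2.12% in the KO clone, 1.35% in the control clone and 1.53% in the parental line, against 0.466 to 0.969% in the other 6 libraries. The part of that signal in the mitochondrial values was not tested. Left out 1 at a time, no library took the number of mitochondrial genes called higher in control against parental below 10, and with KO against control 10 or 11 were called lower.

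The 2 mitochondrial ribosomal RNAs, which are transcribed ahead of the mRNAs and were counted here in libraries made for mRNA, were ordered differently. mt-Rnr1 stood at 1195, 1067 and 980 CPM in the KO clone, 1098, 1063 and 1561 in the control clone and 389, 326 and 328 in the parental line. Both clones lay above the parental line and overlapped each other. The KO clone exceeded the parental line by 1.64 ± 0.15 (adjusted p = 9.79e-05) for mt-Rnr1 and by 1.11 ± 0.12 (adjusted p = 0.000187) for mt-Rnr2. In KO against control, mt-Rnr1 was at -0.20 ± 0.15 (adjusted p = 0.309) and mt-Rnr2 fell by 0.48 ± 0.12 on the log2 scale (adjusted p = 0.00912).

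Several members share their sequence with nuclear pseudogenes, and the deposited counts divide reads between them. On chromosome 1 a block of inserted mitochondrial DNA lies between 24611535 and 24616197 on the minus strand of GRCm38. Annotated pseudogenes in it matched 7 of the 13 genes, and unannotated stretches of the block were not searched. The sequences of 3 pairs are shown because they decide which reads can be assigned: the first 61 bases of mt-Co2 (chrM:7013-7073) and of Gm28661 (chr1:24615505-24615565, minus strand) hold no difference, and the aligned 681 bases were identical throughout.
mt-Co2: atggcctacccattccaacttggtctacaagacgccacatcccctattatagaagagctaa
Gm28661: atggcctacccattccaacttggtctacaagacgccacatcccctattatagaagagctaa
For mt-Co1 (chrM:6390-6423) and Gm29216 (chr1:24616155-24616188, minus strand) the only mismatch in 483 aligned bases is A1066T, in capitals, counted from 1 at the start of mt-Co1.
mt-Co1: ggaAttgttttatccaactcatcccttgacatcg
Gm29216: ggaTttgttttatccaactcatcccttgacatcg
For mt-Nd3 (chrM:9459-9491) and Gm28438 (chr1:24613087-24613119, minus strand) the only mismatch in 345 bases is T3C, counted from the start of mt-Nd3.
mt-Nd3: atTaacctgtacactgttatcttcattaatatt
Gm28438: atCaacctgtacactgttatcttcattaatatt
A read from such a stretch matches both places, so the division rests on the authors' estimate.

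Most counts of 3 mitochondrial genes were placed on the copies. Gm10925 held 96.2% of the counts summed over mt-Atp6 and its copies, Gm28661 and a minor copy held 94.2% for mt-Co2, and Gm28437 held 65.9% for mt-Co3. The share was 20.6% for mt-Nd3, 11.9% for mt-Nd4, 7.04% for mt-Co1 and 0.991% for mt-Nd4l. The share was not level between groups: for mt-Co3 it was 73.8% in the KO clone, 60.2% in the control clone and 68.2% in the parental line, and for mt-Nd3 14.9%, 22.5% and 25.3%. For mt-Nd4l it was 0% in both clones and 5.34% in the parental line. When the copies' counts were added to their member, a setting chosen after the data were seen, mt-Co2 stood at 2252, 2108 and 1572 CPM in the KO clone, 4704, 4440 and 4035 in the control clone and 1797, 1418 and 1239 in the parental line. Its control libraries then stood clear of the other 6 and it was called, with 1.56 ± 0.16 for control against parental (adjusted p = 0.000388) and -1.15 ± 0.16 for KO against control (adjusted p = 0.000508). With the copies, 12 of 13 mitochondrial genes were called higher in control against parental and 12 lower in KO against control. The difference of mt-Co3 shrank to 0.90 for control against parental and -0.70 for KO against control, and both stayed called. mt-Atp6 then differed by more than as deposited. It was at 1.19 ± 0.16 for control against parental (adjusted p = 0.00116) and -0.87 ± 0.16 for KO against control (adjusted p = 0.00177). mt-Nd4l was at 1.60 ± 0.19 for control against parental and no longer the largest, with mt-Co1 at 1.64 ± 0.16. mt-Nd3 remained the exception, at -0.03 ± 0.08 for control against parental. Its KO against control difference shrank from 0.35 to 0.22 ± 0.08 and stayed called (adjusted p = 0.0435), and that for KO against parental shrank to 0.19 ± 0.08 and lost its call (adjusted p = 0.0838). The order of levels per kilobase of gene changed as well: mt-Atp6 was 12th of 13 in all 3 groups as deposited and 1st with its copies, and mt-Co1 went from 1st to 3rd, 2nd and 3rd in the KO, control and parental groups.

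**Figure D2:**
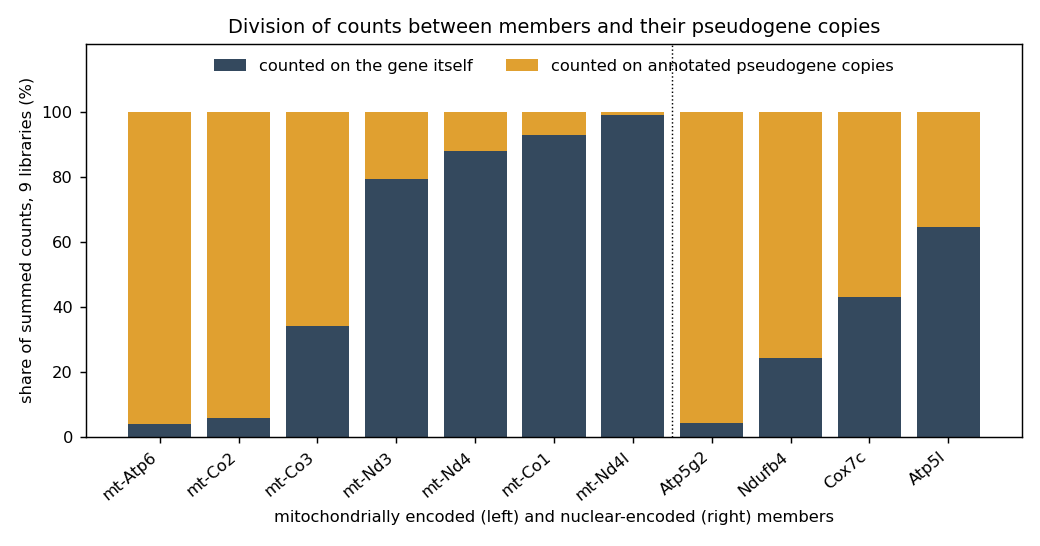
Percentage of counts, summed over 9 libraries, placed on the gene itself (dark) and on its annotated pseudogene copies (yellow), for 7 mitochondrial members left of the dotted line and 4 nuclear members right of it. Copies hold over 90% for mt-Atp6 (96.2%), mt-Co2 (94.2%) and Atp5g2 (95.7%), and 0.991% for mt-Nd4l.

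The nuclear-encoded members moved far less. Of the 79 tested, 5 differed by 2-fold or more between KO and control, 1 between KO and parental and 1 between control and parental, whereas 7, 0 and 11 of the 13 mitochondrial members did. In KO against control, 46 nuclear members were called, beside 42.9% of all genes tested. Of these 7 were higher and 39 lower, beside 18.7% and 24.2% of all genes, and the median of the 79 was -0.22. With no library of one group overlapping the other, 9 were higher and 44 lower, beside 24.0% and 27.6% of all genes. Against the parental line the KO clone had 19 called, all of them lower, beside 31.4% of all genes called and 18.3% called lower, with a median of -0.14. By non-overlap 5 were higher and 38 lower, beside 29.8% and 31.7%. There edgeR called 0 higher, 2 were higher at an unadjusted p under 0.05, and DESeq2 and limma-voom called 0. Control against parental had 18 called, beside 21.4% of all genes, with 9 higher and 9 lower, beside 10.4% and 11.0%, and a median of 0.05. By non-overlap 17 were higher and 18 lower there, beside 18.2% and 19.2%. The counts depend on single libraries: without KO replicate 1 the members called lower in KO against control fell from 50 to 30, counting both genomes, and those in KO against parental from 19 to 8. All genes called, in either direction, fell as well, from 5643 to 4301 and from 4131 to 2626.

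**Figure D3:**
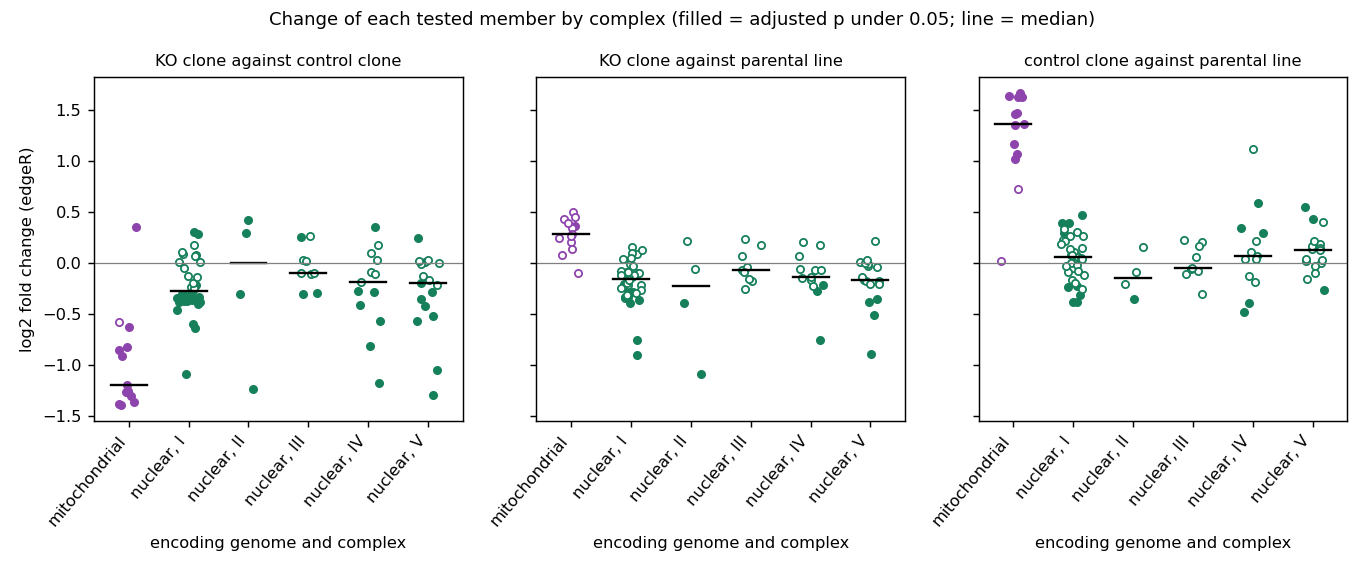
Log2 fold change of each of the 92 tested members in the 3 comparisons, in purple for the 13 mitochondrial members and green for the nuclear members of complexes I to V; filled points have an adjusted p under 0.05 and the black line is the median of the column. The mitochondrial column has medians of -1.20, 0.28 and 1.36, whereas most nuclear members lie within 0.5 of 0.

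Counted as apart when called in 1 direction against both other groups, 17 of the 79 nuclear members were lower in the KO clone than in either other group, beside 13.4% of all genes. They were Sdhc and Sdhd of complex II, Cox5a and Cox7b of complex IV, Atp5e, Atp5j, Atp5l and Atp5o of complex V, and Ndufa3, Ndufa13, Ndufb3, Ndufb4, Ndufb7, Ndufb8, Ndufb11, Ndufc1 and Ndufs3 of complex I. In the control clone 8 were higher than in both other groups (Atp5e, Atp5mpl, Cox6c, Cox7b, Ndufa2, Ndufa4, Ndufb2 and Ndufb5), beside 7.01% of all genes, and 5 were lower (Atp5b, Cox8a, Ndufs1, Ndufv1 and Sdha), beside 6.41%. Cox5b and Ndufa10 were higher in the parental line than in both clones, beside 3.7% of all genes. Of the mitochondrial members mt-Nd3 was the 1 higher in the KO clone than in both others, beside 8.19% of all genes, and the control clone held 11 higher. Cox5b and Ndufa10 each lost the call for KO against parental in 9 of 19 alternatives.

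In KO against control, 2 of the 4 complex II subunits were called lower (Sdhc and Sdhd) and 2 higher (Sdha and Sdhb). Of all genes, 24.2% were called lower and 18.7% higher there. Against the parental line 2 of the 4 were called lower, again Sdhc and Sdhd, and 0 higher, beside 18.3% and 13.1% of all genes. Sdhd lies on chromosome 9 and Sdha on chromosome 13, whose all-gene medians are given below. Whether position in the enzyme has a part was not tested. Sdhd, a membrane anchor that helps bind coenzyme Q, was at 62.4, 60.5 and 68.1 CPM in the KO clone, 162, 148 and 142 in the control clone and 124, 138 and 145 in the parental line. Every KO library was below 70 and every other library above 120. KO was 2.37-fold lower than control (-1.24 ± 0.09, adjusted p = 1.41e-05) and 2.13-fold lower than parental (-1.09 ± 0.09, adjusted p = 4.88e-05), and the clone and line used as controls differed by 0.15 ± 0.09 (adjusted p = 0.249). Sdhc, the other anchor, stood at 56.1, 55.8 and 55.7 CPM in the KO clone, 70.6, 59.4 and 76.9 in the control clone and 69.2, 72.7 and 78.7 in the parental line. Its differences were -0.31 ± 0.10 against control (adjusted p = 0.0325) and -0.40 ± 0.10 against parental (adjusted p = 0.0145). The first was lost in 11 of 19 alternatives, with adjusted p up to 0.105, and the second in 4. Sdha, the flavoprotein that oxidises succinate, had 201, 201 and 213 CPM in the KO clone, 172, 156 and 175 in the control clone and 212, 214 and 217 in the parental line. It was the control clone that stood low here, with KO higher by 0.29 ± 0.07 (adjusted p = 0.00783) and control against parental at -0.36 ± 0.07 (adjusted p = 0.00688). Sdhb, the iron-sulphur subunit, was higher in KO than in control by 0.42 ± 0.08 (adjusted p = 0.00293), the highest called nuclear value of that comparison, and stood at 0.21 ± 0.08 against parental (adjusted p = 0.0749).

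Complex I had all of its 36 nuclear members tested. KO against control gave 2 called higher and 21 lower, beside 18.7% and 24.2% of all genes. Of the 7 core subunits, which carry the flavin and iron-sulphur centres, Ndufs1 and Ndufv1 were higher and Ndufs3 and Ndufs7 lower. Of the 29 accessory subunits, which surround the core, 19 were lower and 0 higher in edgeR, beside the same 24.2% and 18.7%; 1 was higher at an unadjusted p under 0.05, DESeq2 called 1 and limma-voom 0. Whether the core and accessory groups differ was not tested. Ndufs1, the largest iron-sulphur subunit of the NADH-oxidising arm, had 101, 97.1 and 103 CPM in the KO clone, 76.2, 83.8 and 84.3 in the control clone and 108, 103 and 109 in the parental line. The control clone was lowest, and its difference from the parental line was -0.39 ± 0.07 (adjusted p = 0.0049). Ndufv1, the NADH-binding subunit, was also lowest in the control clone, with 137, 144 and 146 CPM in KO, 122, 119 and 111 in control and 137, 145 and 134 in parental libraries. Its call for control against parental (-0.24 ± 0.07, adjusted p = 0.0369) was lost in 10 of 19 alternatives.

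The accessory subunit Ndufb11, encoded on the X chromosome, was lowest in the KO clone. It stood at 14.5, 16.5 and 15.9 CPM there, at 23.7, 21.6 and 27.8 in the control clone and at 27.4, 29.5 and 30.8 in the parental line. KO did not overlap either group and was lower by 0.64 ± 0.11 against control on the log2 scale (log2 fold change -0.64, adjusted p = 0.0017) and at -0.90 ± 0.11 against parental (adjusted p = 0.000439). Ndufb4, an accessory subunit of the membrane arm, had 5.66, 6.57 and 5.72 CPM in KO, 11.8, 11.7 and 14.8 in control and 8.33, 9.55 and 12.5 in parental libraries. It was the lowest of complex I in KO against control (-1.09 ± 0.17, adjusted p = 0.001). Its identical copy Ndufb4c and a minor copy held 75.7% of their summed counts; with them added, KO against control was -1.22 ± 0.09 and KO against parental -0.80 ± 0.09. Ndufa2, another accessory subunit, was higher in the control clone, at 65.6, 60.9 and 67.2 CPM against 41.6, 41.2 and 45.1 in KO and 45, 53.2 and 50 in parental libraries. Ndufa11 served as the flat example, with 0.01 ± 0.08 in KO against control, 0.09 ± 0.08 in KO against parental and 0.08 ± 0.08 in control against parental.

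Complex III had 9 nuclear members tested. In KO against control Uqcrfs1, the Rieske iron-sulphur protein, was higher by 0.26 ± 0.09 (adjusted p = 0.0359), with 83.1, 86.4 and 99.7 CPM in KO and 71.8, 78.1 and 75.4 in control libraries. The groups did not overlap, but the call was lost in 4 of 19 alternatives, among them without KO replicate 3 (adjusted p = 0.137). Uqcr10 and Uqcr11, small subunits, were lower at -0.30 and -0.31. In KO against parental edgeR called 0 of 9, beside 31.4% of all genes, with 3 at an unadjusted p under 0.05 when both directions are counted. In control against parental it called 0, beside 21.4%, with 2 at that level, and DESeq2 and limma-voom called 0 in both comparisons. Cyc1, which carries the haem that reduces cytochrome c, had 117, 119 and 129 CPM in KO, 116, 137 and 105 in control and 101, 110 and 99.6 in parental libraries and passed in no comparison. Uqcrc1, a matrix-facing core subunit, was the flattest of the complex in KO against control at 0.01 ± 0.08.

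**Figure D4:**
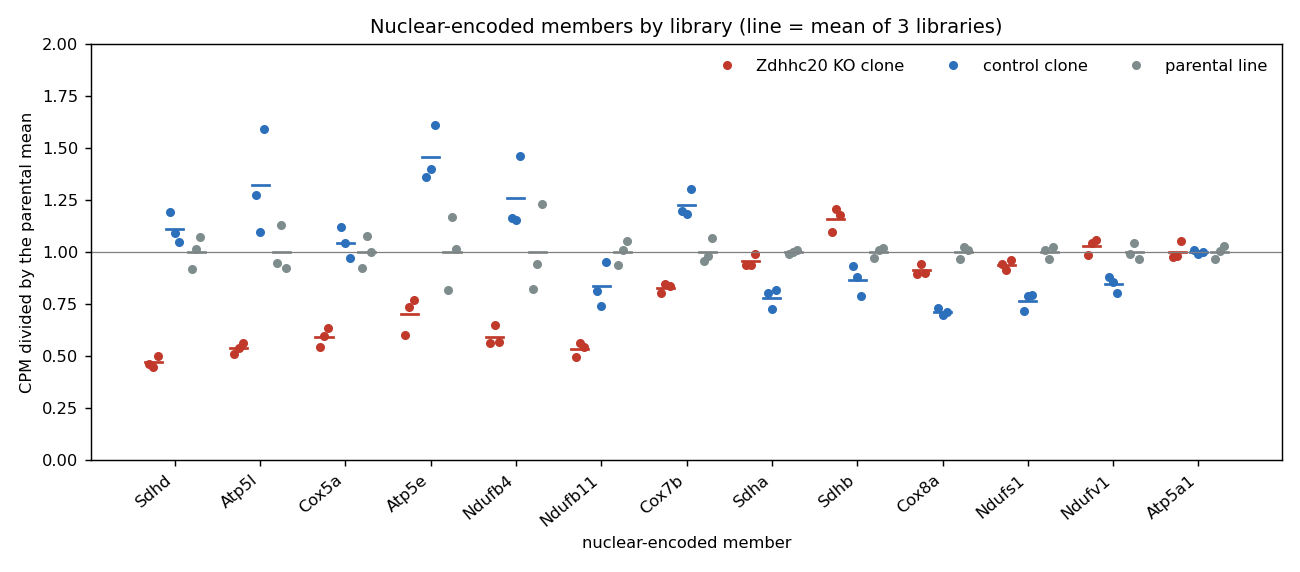
CPM of 13 nuclear-encoded members divided by their mean in the parental line, 1 point for each library and a line at each group's mean of 3 libraries. The KO clone (red) is lowest for the 7 members from Sdhd to Cox7b, the control clone (blue) is lowest for Sdha, Sdhb, Cox8a, Ndufs1 and Ndufv1, and Atp5a1 is level, with KO against control at 0.01 ± 0.06.

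Complex IV had 13 of its 20 nuclear members tested. Cox5a, a matrix-side regulatory subunit, was at 76.8, 84.2 and 89.7 CPM in KO, 158, 147 and 137 in control and 130, 152 and 141 in parental libraries. The KO libraries were the 3 lowest by a wide gap, with -0.82 ± 0.09 against control (adjusted p = 0.000155) and -0.76 ± 0.09 against parental (adjusted p = 0.000389). Its partner Cox5b was at 0.18 ± 0.07 in KO against control (adjusted p = 0.0662) and -0.39 ± 0.07 in control against parental (adjusted p = 0.00482). Cox7b, a small subunit encoded on the X chromosome, was ordered KO, parental, control, at 80.7, 84.6 and 83.8, then 95.9, 98.1 and 107, then 120, 118 and 131 CPM. All 3 of its comparisons were called, at -0.57 for KO against control, -0.27 for KO against parental and 0.30 for control against parental. Cox6c, another small subunit, was highest in the control clone, at 107, 104 and 114 CPM, against 77.8, 84.0 and 82.3 in KO and 64.8, 77.6 and 74.0 in parental libraries. Control against parental was 0.59 ± 0.08 (adjusted p = 0.00176), the highest called nuclear value of that comparison. Cox8a, another of the small subunits, went the other way, with 88.3, 83.9 and 85.9 CPM in the control clone below 108, 114 and 108 in KO and 117, 124 and 122 in the parental line.

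Several complex IV subunits come in isoforms used in different tissues, and these cells held the widespread forms. Cox4i1 stood at 245, 274 and 269 CPM in KO, 317, 313 and 334 in control and 263, 290 and 274 in parental libraries, and KO was at -0.29 ± 0.07 against control (adjusted p = 0.0103). The oxygen-responsive isoform Cox4i2 reached 0.0873 CPM in 1 control library and was at 0 in the other 8. Cox8b, Cox8c and Ndufa4l2 were at 0 in all 9 libraries, Cox6a2, the heart and muscle form, reached at most 0.0584 CPM and Cox6b2, the testis form, 0.175 CPM. A count of 0 here bounds the RNA only at the depth of these libraries. Cox7a1, the muscle form, was low but tested, with 0.781, 0.835 and 0.993 CPM in KO, 1.79, 1.13 and 2.94 in control and 0.674, 1.06 and 1 in parental libraries. Its difference of -1.18 ± 0.37 for KO against control (adjusted p = 0.0297) was lost in 6 of 18 alternatives and shrank to -0.77 without control replicate 3 (adjusted p = 0.0944). Cox7a2, the widespread form, was at -0.09 ± 0.08 in that comparison, and Cox7a2l, which links complexes III and IV, at 0.10 ± 0.11. Ndufa4, a complex IV subunit despite its name, was called lower in KO than in control (-0.28 ± 0.09, adjusted p = 0.0303), a call lost in 10 of 19 alternatives.

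In complex V, 17 of 18 nuclear members were tested, the untested one being the second Atp5o identifier. The catalytic head's main subunits were the most abundant nuclear members per kilobase together with Cox4i1. Atp5b, the catalytic beta subunit, had 847, 897 and 930 CPM in KO, 745, 760 and 761 in control and 902, 922 and 911 in parental libraries, with the control clone lowest. KO against control was 0.24 ± 0.06 (adjusted p = 0.0126). Atp5a1, the alpha subunit, was at 731, 735 and 790 CPM in KO, 758, 741 and 749 in control and 726, 753 and 771 in parental libraries, with all groups overlapping and differences of 0.01, 0.00 and -0.00. Atp5e, the small epsilon subunit of the rotor stalk, differed in all comparisons. It stood at 18.4, 22.5 and 23.5 CPM in KO, 41.6, 42.7 and 49.2 in control and 25, 35.7 and 31.0 in parental libraries, and KO was 2.08-fold lower than control (-1.05 ± 0.15, adjusted p = 0.000485). Its call against the parental line (-0.51 ± 0.15, adjusted p = 0.0264) was lost in 4 of 19 alternatives.

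Atp5l, subunit g of the membrane part, which helps ATP synthases pair into dimers, had the lowest log2 fold change of the nuclear set in KO against control. Its values were 41.5, 43.6 and 45.8 CPM in KO, 103, 89.0 and 129 in control and 76.9, 91.6 and 74.9 in parental libraries. KO did not overlap either group, at -1.30 ± 0.14 against control (adjusted p = 0.000109) and -0.89 ± 0.14 against parental (adjusted p = 0.00124). Copies, chiefly Gm10221, held 35.6% of the summed counts, and with them added the differences were -1.25 ± 0.10 and -0.79 ± 0.10. Atp5mpl, a small proteolipid of the same enzyme, was highest in the control clone, at 53.7, 51.5 and 58.3 CPM against 34.0, 35.8 and 40.6 in KO and 38.0, 41.4 and 41.8 in parental libraries. Of the 4 tested peripheral stalk subunits, which hold the head still, Atp5j and Atp5o were lower in KO than in both other groups, at -0.52 and -0.29 against control and -0.35 and -0.39 against parental. Atp5h, also of the stalk, was flat at -0.00 ± 0.07 in KO against control.

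Mouse has 3 genes for the c subunit, which forms the turning ring. Atp5g3 stood at 170, 192 and 201 CPM in KO, 219, 230 and 209 in control and 200, 220 and 219 in parental libraries, and Atp5g1 at 55.0 to 60.8, 58.8 to 64.5 and 56.3 to 57.7 CPM. Neither was called in any comparison. Atp5g2 was counted at 2.11 to 8.23 CPM, but its identical copy Gm10175 held 95.7% of the summed counts. With the copy added it stood at 97.8, 110 and 101 CPM in KO, 126, 124 and 113 in control and 128, 132 and 143 in parental libraries. The sign of its difference then turned: from 0.03 ± 0.41 to -0.23 ± 0.08 in KO against control (adjusted p = 0.0407), and from 0.21 ± 0.42 to -0.38 ± 0.08 in KO against parental (adjusted p = 0.00595). The inhibitor that blocks ATP hydrolysis by complex V, Atpif1, was at 76.0, 74.1 and 73.6 CPM in KO, 66.4, 46.8 and 68.3 in control and 69.6, 74.4 and 82.3 in parental libraries and passed in no comparison (adjusted p = 0.0979, 0.944 and 0.126). Usmg5 was at -0.07 ± 0.08 in KO against control. Ndufb1-ps, the non-coding locus left out by the rule, was at -0.77 ± 0.10 in KO against control (adjusted p = 0.00026).

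Sdhd, Atp5l and Cox5a lie on chromosome 9, at 50596357 to 50603812, 44912557 to 44920742 and 57521274 to 57532426 in GRCm38. Over the 748 tested genes of that chromosome the median log2 fold change was -0.53 in KO against control and -0.53 in KO against parental, and 53.5% and 54.3% of them were called lower. The chromosome's 2 other members were not called: Cox7a2 at -0.09 ± 0.08 against control and Uqcrc1 at 0.01 ± 0.08. The next lowest chromosome was 16, with all-gene medians of -0.35 and -0.29, and its 3 members, Atp5j, Atp5o and Ndufb4, were lower in both comparisons. Chromosome 13, with the highest all-gene median in KO against control (0.33), carries 6 tested members: Sdha and Uqcrfs1 were called higher, Ndufs4 lower (-0.27, adjusted p = 0.0177), and Cox7c, Ndufs6 and Uqcrb were not called. On the X chromosome the 3 members had a median of -0.57 in KO against control beside 0.08 over all its genes; Cox7b and Ndufb11 were called lower and Ndufa1 was not (adjusted p = 0.0613). The part of these chromosome-wide shifts in the members' values was not tested.

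**Figure D5:**
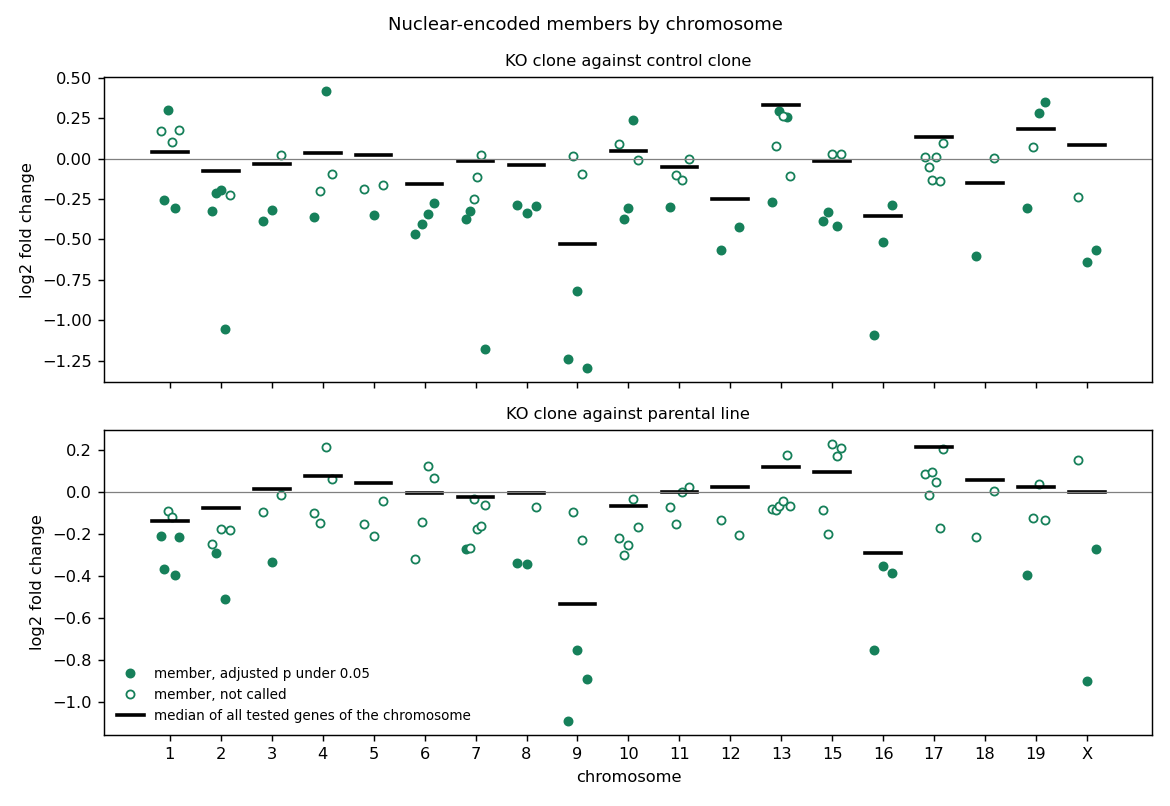
Log2 fold change of each tested nuclear member by chromosome in KO against control (upper panel) and KO against parental (lower panel); filled points have an adjusted p under 0.05 and black bars are the median of all tested genes of the chromosome. The bars are lowest on chromosome 9 (-0.53 in both panels), where Sdhd, Atp5l and Cox5a lie below the bar and Cox7a2 and Uqcrc1 near 0.

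The promoters of these 3 genes are printed because all 3 genes were lower in the KO clone than in both other groups, and they can be compared for motifs of known regulators of respiratory genes. Each window runs from 250 bases before to 50 after the start in RefSeq's GRCm38.p6 table, in which 67 of the 87 nuclear members had an entry. Capitals mark matches, on either strand, to CGCATGCG (NRF1), CCGGAAG (ETS family), AAGGTCA (the site of estrogen-related receptors) and AAGATGG (YY1). Sdhd is at chr9:50603800-50604099 on the minus strand, Atp5l at chr9:44920693-44920992 on the minus strand and Cox5a at chr9:57520982-57521281 on the plus strand.
Sdhd: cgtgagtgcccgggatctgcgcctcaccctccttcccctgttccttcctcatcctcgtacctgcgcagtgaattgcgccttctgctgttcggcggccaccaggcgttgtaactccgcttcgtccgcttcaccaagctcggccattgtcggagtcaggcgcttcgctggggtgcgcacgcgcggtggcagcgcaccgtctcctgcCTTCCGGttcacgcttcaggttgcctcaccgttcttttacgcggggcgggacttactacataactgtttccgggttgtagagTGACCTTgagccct
Atp5l: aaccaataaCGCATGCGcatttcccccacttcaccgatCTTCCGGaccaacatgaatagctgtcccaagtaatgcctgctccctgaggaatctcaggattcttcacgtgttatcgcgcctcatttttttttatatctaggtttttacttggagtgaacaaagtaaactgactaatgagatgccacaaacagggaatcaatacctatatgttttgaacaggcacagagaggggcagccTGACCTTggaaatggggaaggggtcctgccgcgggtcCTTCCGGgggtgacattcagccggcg
Cox5a: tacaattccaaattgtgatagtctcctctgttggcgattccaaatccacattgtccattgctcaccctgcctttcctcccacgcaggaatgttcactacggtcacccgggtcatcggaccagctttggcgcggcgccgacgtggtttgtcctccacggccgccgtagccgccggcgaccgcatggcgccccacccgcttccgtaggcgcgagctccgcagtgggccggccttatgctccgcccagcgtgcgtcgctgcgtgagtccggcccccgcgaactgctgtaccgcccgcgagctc
Sdhd held 2 matches, Atp5l 4 and Cox5a 0 in these windows. Of the 67 member promoters, 13.4% held the NRF1 letters, beside 4.47% of tested genes with an entry and 2.07% of all entries. The ETS letters were in 23.9% beside 21.1% and 9.93%, the estrogen-related receptor letters in 11.9% beside 3.86% and 5.38%, and the YY1 letters in 14.9% beside 8.49% and 7.28%. Among tested members, the 8 with the receptor motif were at a median log2 fold change of -0.70 in KO against control, with 5 called lower. The 56 without it had -0.20, with 27 lower and 6 higher, beside 24.2% and 18.7% of all genes. Of the 8, Atp5l and Sdhd lie on chromosome 9 and Ndufb4 on chromosome 16, which had the lowest all-gene medians (-0.53 and -0.35). The other motifs lay closer: the median was -0.19 with and -0.24 without the NRF1 letters (4 of 9 and 28 of 55 called lower), -0.20 and -0.24 for ETS (8 of 16 and 24 of 48), and -0.33 and -0.20 for YY1 (8 of 10 and 24 of 54). These are descriptions of letters in a window, and the difference between the groups was not tested.

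Other genes of the pathway were counted from fixed lists. Of 55 assembly factors, which build the complexes but are not part of them, 5 were called higher and 23 lower in KO against control, beside 18.7% and 24.2% of all genes, with a median of -0.23. Their 28 calls fell to 18 without KO replicate 1 and 17 without KO replicate 3, where those of all genes fell from 5643 to 4301 and 4397. Foxred1, a complex I assembly factor on chromosome 9, was at -1.21 ± 0.10 against control (adjusted p = 2.85e-05) and -1.16 ± 0.10 against parental (adjusted p = 5.88e-05). Cox16, needed to insert copper into mt-Co2, stood at 8.69 ± 0.297 CPM in KO, 17.9 ± 2.39 in control and 12.4 ± 1.10 in parental libraries (SD, n = 3) and fell by 1.04 on the log2 scale in KO against control. Ndufaf2 was called higher, at 0.68 ± 0.17. Of 29 genes for mitochondrial DNA upkeep, transcription and RNA stability, 4 were called higher and 2 lower in KO against control (13.8% and 6.9%, beside 18.7% and 24.2% of all genes), and 3 and 1 in control against parental (10.3% and 3.45%, beside 10.4% and 11.0%). The 6 calls in KO against control fell to 3 without KO replicate 1 or 3, control replicate 1 or parental replicate 2, and rose to 14 without control replicate 2. Without control replicate 2 the calls of all genes rose too, to 7204. Lrpprc, which stabilises mitochondrial mRNAs, had 251 ± 3.93 CPM in KO, 162 ± 39.2 in control and 154 ± 8.70 in parental libraries, and KO was higher by 0.63 ± 0.15 against control (adjusted p = 0.00687) and by 0.71 ± 0.15 against parental. Slirp, its binding partner, went the other way, at -0.74 ± 0.11 in KO against control (adjusted p = 0.000538) and 0.44 ± 0.10 in control against parental. Tfam, which packages and transcribes mitochondrial DNA, was at 0.03 ± 0.09 in KO against control and was lower in both clones than in the parental line. It stood at -0.27 ± 0.09 in KO against parental (adjusted p = 0.0432) and -0.31 ± 0.09 in control against parental (adjusted p = 0.0378). The RNA polymerase Polrmt was not called in any comparison. Of 78 proteins of the mitochondrial ribosome, 9 were called higher and 15 lower in KO against control (11.5% and 19.2%, both below the 18.7% and 24.2% of all genes), with a median of -0.04. Their 24 calls fell to 12 without KO replicate 1 and 15 without KO replicate 3. Mrpl4, encoded on chromosome 9, was lowest at -0.999 ± 0.10, and Mrpl16 highest at 0.66 ± 0.09.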

How the data were processed

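RNA sequencing gave 9 libraries in 3 groups of 3, taken from the labels. The deposited values are estimated counts per gene, all whole numbers. Per the submitters' processing notes, STAR 2.5.2, RSEM 1.3.0, DESeq2 1.10.1 and build GRCm38 were used; the annotation release and strand setting are not given in the sources used here, so overlapping and antisense genes are uncertain. RSEM divides reads that match several genes by an estimate. Symbols and positions came from GENCODE M21, which held 54809 of 54838 identifiers.

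Members and lists were chosen with earlier results of these data known. Genes passing edgeR's filterByExpr (minimum count 10, minimum total 15) were scaled by TMM and fitted together in edgeR 4.0.16 under R 4.3.3, all 9 libraries at once and group as sole term; the method was tested on simulated data. DESeq2 1.42.0 and limma 3.58.1 (voom) were alternatives, beside other scalings, filters, a replicate block, fits of the groups compared alone, leaving out each library, and a minimum log2 fold change of 0.5 in either direction. Numbers of alternatives given for single members leave out this minimum. Pseudogene copies were found with blastn 2.17.0 (identity at least 95% over at least 100 bases, covering at least 50% of the copy).

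Named with values were all mitochondrial members, isoform families, Sdha to Sdhd, Cyc1, Atp5if1, the 6 highest and 6 lowest called nuclear members of each comparison, the 3 most abundant per length, the flattest of a complex, and the extreme called genes of each pathway list. Members of the group lower in the KO clone than in both others, and Cox7b, Ndufb1-ps, Usmg5, Tfam, Polrmt and the mitochondrial ribosomal RNAs, were named after their values were seen.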

Additional observations from a re-analysis of the deposited data

How the results depend on the processing

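Of 150 values (50 named members in 3 comparisons), 97 kept their side of the threshold in every alternative other than the minimum log2 fold change. The other 53 changed call in at least 1 of these alternatives, and the causes were not tested. The minimum log2 fold change was left out of these counts. With it, 0 members were called higher in KO against control. Sdha, Sdhb, Cox8a, Ndufs1 and Ndufv1 thus lost that call, which they kept in every alternative counted. In 24 the sign differed in at least 1 alternative, and 0 of these 24 were called as deposited. In the alternatives counted, mitochondrial calls stayed at 10 to 12 of 13 higher in control against parental and 10 to 12 lower in KO against control. Depth limits members near 1 CPM such as Cox7a1. Of the 24, 2 were called with the other sign, both for Atp5g2 with pseudogene copies added, at -0.23 in KO against control and -0.38 in KO against parental, and with the copies 0 members were called higher in KO against parental.

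Over all genes tested, replicate numbers did not pair the libraries. Same-numbered correlations of deviations ran from -0.134 to 0.211, and not every library correlated best with its own number. The mitochondrial mRNA share did follow the numbers, falling from replicate 1 to 3 in every group. It was 1.56, 1.48 and 1.06% in KO, 3.32, 3.02 and 2.66% in control and 1.31, 1.08 and 0.969% in parental libraries. With the replicate block, members called higher in KO against parental numbered 5, mitochondrial ribosome calls in control against parental 5, coenzyme Q calls in control against parental 1, and tricarboxylic acid cycle calls 3 in KO against parental and 2 in control against parental.

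A minimum log2 fold change of 0.5 in either direction left 0 members called higher and 22 lower in KO against control, 0 higher and 6 lower in KO against parental, and 13 higher and 0 lower in control against parental. The list counts, both directions together, then were 9 (KO against parental) and 4 (control against parental) for assembly factors, 3 (KO against control) and 0 (control against parental) for mitochondrial DNA and RNA genes, 5, 3 and 1 for the mitochondrial ribosome, 0 (control against parental) for regulators, 0 (control against parental) for coenzyme Q, and 1, 1 and 0 for the tricarboxylic acid cycle. A fit of only the groups compared gave 33 members lower in KO against control, 7 higher and 34 lower in KO against parental, and 5 lower in control against parental. Over all genes that fit called 4348 in KO against control, 6840 in KO against parental and 1525 in control against parental. The fit of all 9 libraries called 5643, 4131 and 2814, so the member counts moved with those of all genes. Its list counts were 25 (KO against parental) and 2 (control against parental) for assembly factors, 3, 13 and 0 for mitochondrial DNA and RNA genes, 14, 27 and 1 for the mitochondrial ribosome, 9 (KO against parental) for regulators, 5 (KO against parental) and 0 (control against parental) for coenzyme Q, and 3, 8 and 1 for the tricarboxylic acid cycle.

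Without a filter, 3 members were higher in KO against parental, and list counts were 4 for assembly factors (control against parental), 13 (KO against control) and 4 (control against parental) for the mitochondrial ribosome, 0 for coenzyme Q (control against parental) and 3, 3 and 2 for the tricarboxylic acid cycle. DESeq2 called 3 members higher in KO against parental. In control against parental, 2 regulators were called with total counts, with a mean of at least 5 CPM and with DESeq2, and 1 coenzyme Q gene with total counts.

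Without 1 library at a time, members called in KO against control ran from 5 to 9 higher (5 without KO replicate 3) and 30 to 49 lower (30 without KO replicate 1). In KO against parental they ran from 0 to 5 higher and 8 to 26 lower, with 8 and 10 lower without KO replicates 1 and 2 and 11 and 9 without parental replicates 2 and 3. In control against parental they ran from 11 to 25 higher (11 without parental replicate 1) and 5 to 12 lower (5 without parental replicate 2). All genes called ran from 4301 to 7204 in KO against control, 2515 to 5693 in KO against parental and 1472 to 4102 in control against parental. List counts in KO against control, KO against parental and control against parental ran from 17 to 32, 6 to 23 and 1 to 12 for assembly factors, 3 to 14, 2 to 9 and 0 to 7 for mitochondrial DNA and RNA genes, 12 to 34, 7 to 22 and 2 to 18 for the mitochondrial ribosome, 2 to 6, 2 to 8 and 1 to 4 for regulators, 3 to 8, 2 to 5 and 0 to 1 for coenzyme Q, and 3 to 8, 3 to 6 and 1 to 5 for the tricarboxylic acid cycle.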

Other observations

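The tricarboxylic acid cycle supplies electrons to the chain, a supply that RNA counts do not measure. Of its 14 genes, 2 were called higher and 3 lower in KO against control by the same test. These shares were 14.3% and 21.4%, beside 18.7% and 24.2% of all genes. Suclg2, the GTP-forming subunit of succinyl-CoA ligase, stood at 65.9 ± 3.71 CPM in the KO clone, 122 ± 27.2 in the control clone and 138 ± 14.8 in the parental line (SD, n = 3), and was at -0.89 ± 0.15 against control (adjusted p = 0.00132) and -1.06 ± 0.15 against parental (adjusted p = 0.000843). Cs, citrate synthase, was higher in KO than in control by 0.30 ± 0.07 (adjusted p = 0.00727), with 312 ± 1.72 against 254 ± 18.4 CPM, and Idh2, the NADP-linked isocitrate dehydrogenase, by 0.44 ± 0.10 (adjusted p = 0.00551). Of the 14 tested genes for coenzyme Q synthesis and cytochrome c, 4 were lower in KO against control (28.6%, beside 24.2% of all genes), among them Coq9 at -0.82 ± 0.14 (adjusted p = 0.0015) and Coq2 at -0.55 ± 0.11 (adjusted p = 0.00362), and both were also lower against the parental line. Cycs, the cytochrome c of somatic tissues, was called higher in KO than in the parental line, at 0.47 ± 0.11 (adjusted p = 0.013).

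Of 15 listed regulators of respiratory genes, 11 were tested, with 2 called higher and 2 lower in KO against control (18.2% each, beside 18.7% and 24.2% of all genes). Ppargc1a, a coactivator of mitochondrial gene expression, had 10.0 ± 1.05 CPM in KO, 6.30 ± 2.08 in control and 4.64 ± 0.703 in parental libraries, and was higher in KO by 0.66 ± 0.23 against control (adjusted p = 0.0426) and by 1.10 ± 0.24 against parental (adjusted p = 0.00679). Yy1, a transcription factor, was highest in the control clone, at 180 ± 9.10 CPM against 117 ± 2.85 in KO and 133 ± 2.93 in parental libraries, and both of its differences from the control clone were called. Epas1, an oxygen-regulated factor, was near the detection limit in KO at 0.174 ± 0.103 CPM, against 4.44 ± 3.22 in control and 3.24 ± 0.817 in parental libraries, and was called lower against both.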
